A study of Drosophila melanogaster with 2 samples.

Results

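The genes described here are 10 regulators of the Drosophila melanogaster cell cycle, picked by name: the cyclin genes CycA, CycB, CycB3, CycD and CycE, the kinase gene Cdk1, the phosphatase genes stg and twe, and the anaphase-promoting complex activators fzy and fzr. They are 10 of 13945 protein-coding genes on the chromosome arms that carried peaks, and each was taken with 5 kb either side. The study mapped the transcription factor maf-S by anti-GFP chromatin immunoprecipitation and sequencing (ChIP-seq) in whole embryos, males and females together, aged 0 to 24 hours. The line stably expressed maf-S with eGFP fused to its C-terminus, and no source used here gives the promoter behind the fusion. There was 1 group with 2 biological replicates, numbered 2 and 3, and no second genotype, age or treatment. Embryos of these ages hold cycling and postmitotic cells of all tissues, and a peak does not say in which of them the protein was bound.

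Cyclins are the activating partners of cyclin-dependent kinases. Cyclins A, B and B3 act with Cdk1 in mitosis, cyclin E acts with Cdk2 at the start of DNA synthesis, and cyclin D acts with Cdk4. String (stg) and twine (twe) are phosphatases of the Cdc25 kind that remove inhibitory phosphate from Cdk1, and pulses of stg transcription time the divisions after cellularisation of the fly embryo. Fizzy (fzy, the fly Cdc20) and fizzy-related (fzr, the fly Cdh1) direct the anaphase-promoting complex to the mitotic cyclins. maf-S is the small Maf protein of the fly, which lacks an activation domain and binds DNA as a dimer with other basic leucine zipper proteins.

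Each peak carried a signal value set by the authors' peak caller, and peaks were ranked on it from 1, the strongest. The thresholded list, which passed the authors' irreproducible discovery rate (IDR) step, held 3205 peaks with signals from 72.3 to 1703 and a median of 109. These were the strongest peaks of a pooled list of 30000, and each replicate had a list of 30000 of its own. The pooled and replicate lists hold background as well as peaks per their labels, so a peak below the threshold need not be a bound site. Signals were compared within a list only, since their scale may differ between lists. Coordinates are 1-based on dm6.

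A thresholded summit lay within 1 kb of a start site at 3 of the 10 genes, CycB, Cdk1 and fzr (30%, exact Clopper-Pearson 95% interval 6.67 to 65.2). Over all protein-coding genes the share was 19.4%, inside that interval, so the count does not set the regulators apart. Within the gene and 5 kb either side, CycA and fzy joined them, 5 of 10 genes (50%, interval 18.7 to 81.3) against 41.8% of all protein-coding genes. The intervals cover counting error over genes only. Longer genes have wider windows, and the median length was 3155.5 bp for the 10 regulators and 2166 bp for all protein-coding genes. The 5 windows held 10 thresholded peaks, of which 3 lay within 1 kb of a start site of the regulator and 7 lay elsewhere. CycB3, CycD, CycE, stg and twe had no thresholded peak in their windows.

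**Figure D1:**
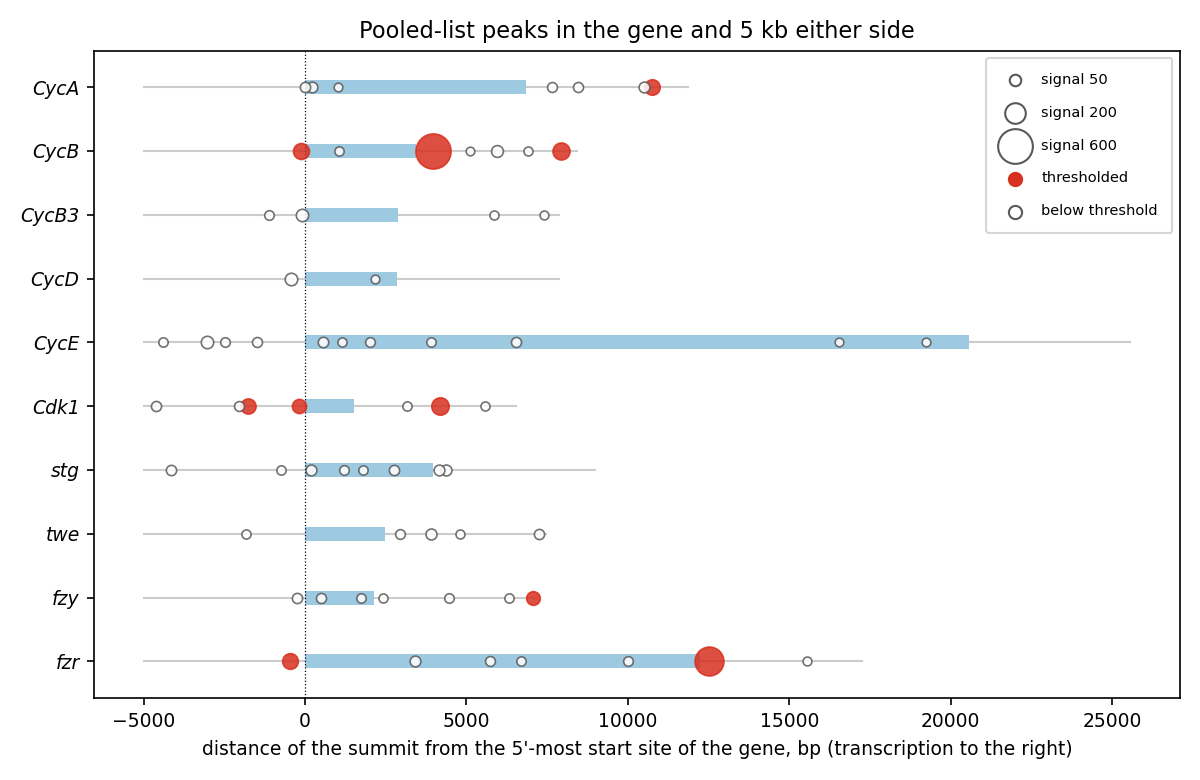
Pooled-list peaks in each gene (blue bar) and 5 kb either side (grey line), by distance in bp of the summit from the 5'-most start site, with circles that grow with the signal. Filled red circles are the 10 thresholded peaks, and the 2 largest of them, with signals of 615 and 409, lie past the 3' ends of CycB and fzr.

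CycB, the cyclin B gene (FBgn0000405, 2R:22803521-22806948, minus strand, 3 start sites), had the strongest peak of the 10 windows, and it lay past the end of the gene. This peak, at 2R:22802815-22803088 with its summit at 22802969, had a pooled signal of 615 and rank 43. Its signal was 247 in replicate 2 (rank 50) and 368 in replicate 3 (rank 39). Both replicates thus placed it among their 50 strongest peaks. The summit was 552 bp beyond the 3' end of CycB and 3334 bp from the nearest start site of any gene, an internal start of CycB. The promoter peak of CycB, at 2R:22806868-22807257, was separate and weaker. Its summit lay 115 bp upstream of the first start site, with signal 113 and rank 1526. Replicate 2 gave it a signal of 45.9 (rank 1768) and replicate 3 a signal of 68.3 (rank 1384).

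The distal CycB peak was 5.45 times as strong as the promoter peak in the pooled list, 5.37 times in replicate 2 and 5.38 times in replicate 3. It fell in the space toward which CycB and its neighbour blw, the gene of the ATP synthase alpha subunit, are both transcribed. Such spaces between convergent genes held 63 of the 3205 thresholded summits, with a median signal of 111, and the CycB peak was the second strongest of them. Of the 43 strongest thresholded peaks, 2 lay farther than 3 kb from any start site, this one included, against 529 (16.5%) of the whole list. The last thresholded peak of the CycB window (signal 131, rank 1154) was 92 bp from the start site of blw. The start site of stl, a protease gene transcribed away from CycB, lay 912 bp from that of CycB. The 201 bp around the promoter summit held the core promoter sequence GGTCACAC (motif 1, bound by the factor M1BP), present in 3.59% of thresholded windows. They also held the relaxed Cnc-Maf sequence TGACNNNGC, 81 bp from the summit and with A or G ahead of it, a form present in 2.87% of thresholded windows and in 3.24% of windows around start sites. Neither sequence was in the distal window.

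CycA, the cyclin A gene (FBgn0000404, 3L:11826719-11833578, minus strand, 1 start site), had no thresholded peak at its start. Below the threshold a summit lay 209 bp downstream of the start, in the 5' UTR, with signal 40.1 and rank 8111. Its signals of 24.2 in replicate 2 and 21.1 in replicate 3 gave ranks of 5801 and 9588. A second summit lay 3 bp upstream of the start, with signal 36.2 and rank 9793, and the replicates ranked it 7385 and 18965. Beside it, 5 bp from the summit, stood TATCGATA, the DNA replication-related element (DRE) known from promoters of fly replication and growth genes. DRE was in 1.95% of pooled-list windows, in 5.74% of thresholded windows and in 6.45% of windows around start sites. The thresholded peak of the CycA window, 3L:11822626-11823015, lay 3898 bp past the 3' end of CycA and 30 bp from the start of RpL10Ab, a ribosomal protein gene. It had signal 105 and rank 1721, with signals of 45.1 (rank 1836) and 56.6 (rank 1936) in replicates 2 and 3. A DRE stood 43 bp from this summit too, so both a CycA start peak and the stronger neighbouring peak held the element. The sequences outside the UTRs are shown for this shared element, in capitals, each as the plus strand of the RefSeq copy of Release 6.
CycA start, 3L:11833579-11833681: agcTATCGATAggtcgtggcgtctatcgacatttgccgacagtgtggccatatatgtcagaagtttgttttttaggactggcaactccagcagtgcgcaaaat
RpL10Ab start, 3L:11822721-11822850: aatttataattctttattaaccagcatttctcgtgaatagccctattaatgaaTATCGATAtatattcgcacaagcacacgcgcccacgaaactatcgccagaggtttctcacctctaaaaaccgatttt

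CycB3, the cyclin B3 gene (FBgn0015625, 3R:24867934-24870816, minus strand, 1 start site), came nearer to the threshold. Its peak at 3R:24870722-24871111, 101 bp upstream of the start, had signal 60.5 and rank 4256. The signal was 29.7 in replicate 2 (rank 3865) and 30.6 in replicate 3 (rank 5229). This was the strongest peak of the CycB3 window in the pooled list. Motif 1 lay 48 bp from the summit, as it lay 50 bp from the promoter summit of CycB, and it was in 1.7% of pooled-list windows and in 5.68% of windows around start sites. The window is printed to show that match, in capitals as GTGTGACC on the plus strand, the reverse complement of the motif.
CycB3 start, 3R:24870817-24871017: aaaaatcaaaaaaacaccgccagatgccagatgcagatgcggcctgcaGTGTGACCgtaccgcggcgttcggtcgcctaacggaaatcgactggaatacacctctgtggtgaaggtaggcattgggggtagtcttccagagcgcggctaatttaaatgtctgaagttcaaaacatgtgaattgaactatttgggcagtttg
The nearest thresholded summit was 5883 bp upstream of CycB3, at the promoter of CG3744 (3R:24876504-24876893, signal 94.5, rank 2052).

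CycD, the cyclin D gene (FBgn0010315, X:15906822-15909676, minus strand, 1 start site), had 2 pooled-list peaks in its window, the fewest of the 10 genes. The stronger, at X:15909930-15910319, lay 449 bp upstream of the start with signal 62.3 and rank 4046. Its signal was 17.7 in replicate 2 (rank 11602) and 43.0 in replicate 3 (rank 3054), ranks that differed 3.80-fold. In replicate 3 alone it was thus within the first 3205 ranks. Of the sequences searched, its window held neither DRE nor motif 1, and neither TGACNNNGC nor the AP-1 sequence TGANTCA. The window is shown because it belongs to the strongest start-site peak below the threshold.
CycD start, X:15910025-15910225: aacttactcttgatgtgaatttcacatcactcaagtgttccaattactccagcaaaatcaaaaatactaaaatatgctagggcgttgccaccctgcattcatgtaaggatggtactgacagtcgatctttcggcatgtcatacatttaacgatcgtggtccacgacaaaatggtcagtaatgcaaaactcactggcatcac

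CycE, the cyclin E gene (FBgn0010382, 2L:15727581-15748150, minus strand, 3 start sites), is the longest of the 10 at 20570 bp. It had 11 pooled-list peaks in its window, and none reached the threshold, with signals from 20.8 to 61.1. The strongest, 2L:15750992-15751381 (rank 4186), lay 109 bp from the start of ND-B17, a gene of mitochondrial complex I, and 3037 bp upstream of CycE. Its replicate signals of 16.1 and 44.3 gave ranks of 14481 and 2924, the widest gap among the peaks of the 10 windows matched in both replicates, at 4.95-fold. The relaxed Cnc-Maf sequence TGACNNNGC lay 35 bp from this summit. It was in 6.8% of pooled-list windows and in 6.49% of windows around start sites. In the pooled list the best peak at a CycE start, 2L:15747388-15747777, lay 567 bp downstream of it in the first intron. It had signal 38.2 and rank 8867, with replicate signals of 25.5 (rank 5190) and 15.6 (rank 16740). The best start-site summits of the replicates lay elsewhere. Replicate 2 had its own at 15745924 (signal 25.5, rank 5183) and replicate 3 at 15747281 (signal 30.2, rank 5341). The start site of an antisense RNA gene, asRNA:CR44866, was nearer to the pooled summit, at 418 bp. Of annotated genes only CycE spanned that summit. The window of the pooled summit held an E2F sequence, the element through which E2F factors are known to act on cyclin E in animals, 35 bp from the summit. The E2F search took the 4 forms TTTCCCGC, TTTCGCGC, TTTGCCGC and TTTGGCGC on both strands, and 4.41% of pooled-list windows and 4.77% of windows around start sites held one. GAGAG, the core of GAGA sites, was there as well, as in 24.3% of pooled-list windows. Capitals below mark both.
CycE first intron, 2L:15747483-15747683: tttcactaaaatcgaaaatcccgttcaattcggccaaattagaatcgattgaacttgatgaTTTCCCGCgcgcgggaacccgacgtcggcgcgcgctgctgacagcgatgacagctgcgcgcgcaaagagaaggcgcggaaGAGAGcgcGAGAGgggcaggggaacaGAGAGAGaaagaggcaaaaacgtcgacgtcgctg

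Cdk1, the mitotic kinase gene (FBgn0004106, 2L:10384739-10386262, minus strand, 1 start site), had a promoter peak that lay between stronger peaks of its neighbours. The promoter peak, 2L:10386240-10386629, had signal 85.1 and rank 2450, with signals of 37.6 in replicate 2 (rank 2536) and 47.3 in replicate 3 (rank 2573). Of the 10 thresholded peaks its replicate ranks were the closest, with a 1.01-fold difference. The summit lay 173 bp upstream of Cdk1, between it and mRpS7, a mitochondrial ribosomal protein gene that starts 400 bp away and is transcribed in the opposite direction. In replicate 3 the summit was 209 bp from Cdk1 and 191 bp from mRpS7, so binding at one promoter and at the other cannot be told apart here. The strongest peak of the window, 2L:10381882-10382271 (signal 137, rank 1061), lay 186 bp from the start of CG5096 in the 3' UTR of gny. The third, 2L:10387831-10388220 (signal 99.9, rank 1862), lay 79 bp from the start of da, the gene of a basic helix-loop-helix factor. Replicate 2 ranked this one 1398 and replicate 3 ranked it 2702, the widest gap among the 10 thresholded peaks at 1.93-fold. The Cdk1 promoter window is shown for its base composition: 23.9% of its bases were G or C, where the median thresholded window had 36.8%. The fzr promoter window was nearly as low, at 25.4%. The Cdk1 promoter window held none of the sequences searched.
Cdk1 promoter, 2L:10386335-10386535: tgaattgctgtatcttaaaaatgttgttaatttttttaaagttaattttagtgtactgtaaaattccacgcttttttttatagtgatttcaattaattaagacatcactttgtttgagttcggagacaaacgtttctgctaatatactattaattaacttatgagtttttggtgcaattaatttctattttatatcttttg

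The Cdc25 genes stg and twe had the weakest windows of the 10 in the pooled list, though not in each replicate: in replicate 2 the best window signal was lowest for CycD (17.7), and in replicate 3 stg (40.96) stood above CycB3 (30.6). For stg (FBgn0003525, 3R:29251826-29255800, minus strand, 2 start sites) the best start-site summit was 201 bp downstream, in the 5' UTR, with signal 42.2 and rank 7420. It matched a peak of replicate 3 (signal 29.6, rank 5486) and none of replicate 2 within 150 bp. The best start-site summit of replicate 2 lay 45 bp from a stg start (signal 17.0, rank 12825). The strongest peak of the stg window, 3R:29251224-29251613, lay 407 bp past the 3' end with signal 43.4 and rank 7079, and it matched a peak of replicate 2 (signal 27.8, rank 4402) and none of replicate 3. Another lay 175 bp past the end (signal 41.6, rank 7590) and matched replicate 3 only (signal 40.96, rank 3308). None of these 3 peaks had a match within 150 bp in both replicates. The E2F sequence described for CycE also lay 77 bp from the summit of a peak ranked 14547, in a stg intron 748 bp from a stg start. Another lay 33 bp from the summit of a peak ranked 17904. That summit was in the 5' UTR of CG45544, 74 bp from its start and 759 bp from a stg start. CG45544 starts 685 bp from stg and is transcribed in the opposite direction. The nearest thresholded summit was 35157 bp downstream of a stg start, at the promoter of eEF1gamma, an elongation factor gene (3R:29220045-29220235, signal 289, rank 218).

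For twe (FBgn0002673, 2L:16259414-16261877, minus strand, 2 start sites), whose product is known for its part in meiosis, the pooled list held no summit within 1 kb of a start site. It was the only one of the 10 genes without one, where 63.3% of all protein-coding genes had one. The replicates listed different weak summits, replicate 2 at 30 bp (signal 12.1, rank 26194) and replicate 3 at 401 bp (signal 16.2, rank 15546). In the pooled list the strongest peak of the twe window was that of EndoGI, an endonuclease G inhibitor gene. It lay 39 bp from the EndoGI start, with signal 44.4 and rank 6839. Its replicate signals were 24.7 (rank 5576) and 18.8 (rank 11846). In replicate 3 another peak of the window was stronger (signal 26.6, rank 6459), and it matched a pooled peak in an intron of PRL-1. The start of CG4935 lies 264 bp from that of twe in the opposite direction, so the absence of a pooled summit holds for both starts of this pair.

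The APC/C activator genes differed from each other at their starts. For fzr (FBgn0262699, X:4667290-4679537, minus strand, 2 start sites) the promoter peak X:4679812-4680201 had its summit 470 bp upstream, in the 3' UTR of the phosphatase gene Pp2C1, with signal 109 and rank 1629. The signal was 45.1 in replicate 2 (rank 1834) and 62.4 in replicate 3 (rank 1639). The strongest peak of the fzr window, X:4666884-4667152 with its summit at 4667012, lay 278 bp past the 3' end of fzr and 312 bp upstream of CG3009. It had signal 409 and rank 106, with signals of 163 (rank 124) and 246 (rank 94) in the replicates. It was 3.76 times as strong as the fzr promoter peak, 3.61 times in replicate 2 and 3.95 times in replicate 3. The distal window is shown because it holds the second strongest peak of the 10 genes, and it contained neither DRE nor motif 1 nor TGACNNNGC.
fzr 3' end and CG3009 start, X:4666912-4667112: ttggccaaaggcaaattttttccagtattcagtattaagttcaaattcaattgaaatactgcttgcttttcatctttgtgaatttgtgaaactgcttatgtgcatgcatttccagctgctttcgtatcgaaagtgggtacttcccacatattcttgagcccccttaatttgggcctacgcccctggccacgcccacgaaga

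For fzy (FBgn0001086, 2L:16310956-16313097, plus strand, 1 start site) no start-site peak passed the threshold. The best, with signal 35.5 and rank 10139, lay 246 bp upstream of fzy but 16 bp from the start of cni, which is transcribed away from fzy at a distance of 230 bp. Replicate 2 listed it with signal 20.8 (rank 8037) and replicate 3 had no match. A second summit 503 bp downstream of the start had signal 34.1 and rank 10950. The thresholded peak of the fzy window, 2L:16317823-16318212, lay 4921 bp past the 3' end in an intron of cact, the gene of the fly I-kappa-B protein. It had signal 78.0 and rank 2831, with signals of 28.8 (rank 4102) and 49.2 (rank 2415) in the replicates. It was the weakest of the 10 thresholded peaks. GAGAG, found in 23.1% of thresholded windows, is in capitals in its sequence.
cact intron, 2L:16317918-16318118: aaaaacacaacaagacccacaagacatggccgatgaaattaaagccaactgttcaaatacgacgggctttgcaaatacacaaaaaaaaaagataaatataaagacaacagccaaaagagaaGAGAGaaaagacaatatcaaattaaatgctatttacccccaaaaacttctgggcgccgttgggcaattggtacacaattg

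Ordered by the pooled signal of the best peak within 1 kb of a start site, the genes ran CycB, fzr, Cdk1, CycD, CycB3, stg, CycA, CycE and fzy, with twe last. CycB, fzr and Cdk1 were the 3 strongest in both replicates as well, in the same order. The order below them was not shared: CycD was 8th in replicate 2 and 4th in replicate 3, stg 9th and 7th, and fzy 7th and 10th. CycB3 stood 4th and 5th. Among all protein-coding genes, 10.6% had a stronger start-site peak than CycB, 11.2% than fzr, 15.6% than Cdk1, 23.0% than CycD and 24.2% than CycB3. For stg, CycA and CycE the shares were 34.9%, 36.6% and 38.3%. The median signal was 60.5 over the 9 regulators with a start-site peak and 46.4 over the 8833 protein-coding genes with one.

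**Figure D2:**
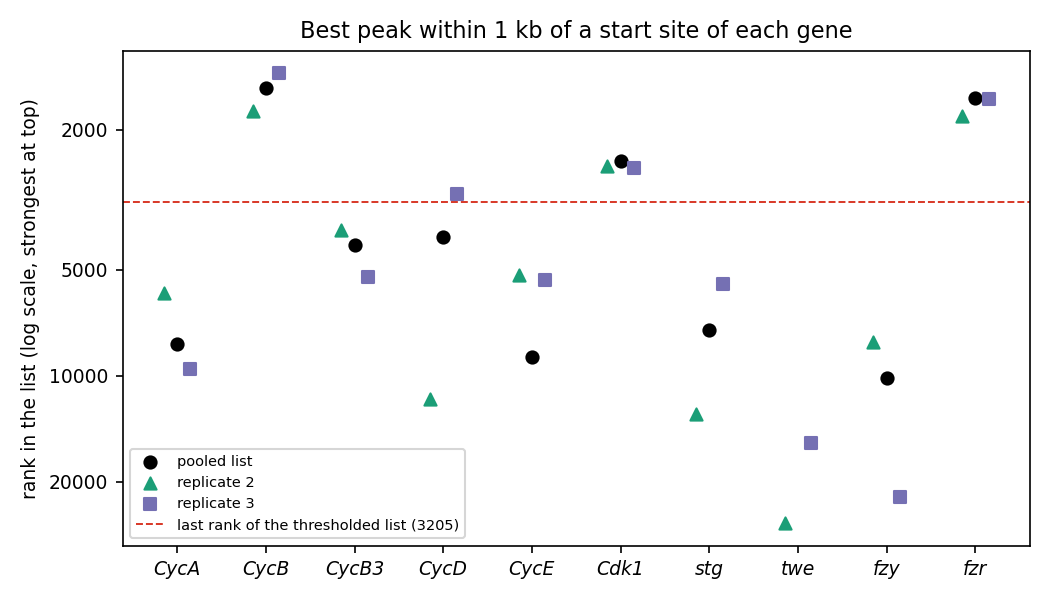
Rank (log axis, 1 is the strongest) of the best summit within 1 kb of a start site of each gene, in the pooled list and in replicates 2 and 3. CycB, Cdk1 and fzr lie within the first 3205 ranks in all 3 lists, while CycD moves from rank 11602 in replicate 2 to rank 3054 in replicate 3.

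**Figure D3:**
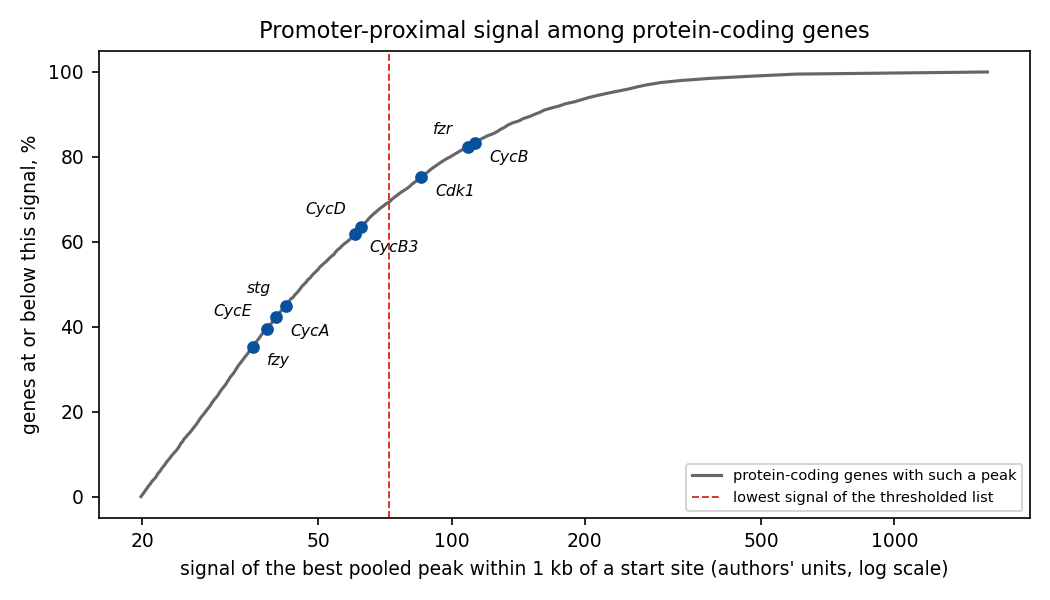
Signal of the best pooled-list peak within 1 kb of a start site for all protein-coding genes that had one, with each regulator marked. CycB at 113 is the strongest of the 9 and fzy at 35.5 the weakest, and the median gene stands at 46.4.

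For 8 of the 10 regulators the strongest pooled-list peak of the window lay farther than 1 kb from a start of the gene, the exceptions being CycB3 and CycD. The same was true of 67.9% of the 12202 protein-coding genes with a window peak, so the count does not set the regulators apart. The ratio of the best window peak to the best start-site peak was 2.61 for CycA, 2.19 for fzy, 1.62 for Cdk1, 1.60 for CycE and 1.03 for stg in the pooled list. These ratios moved between the replicates: in replicates 2 and 3 they were 1.86 and 2.68 for CycA, 1.38 and 3.69 for fzy, 1.38 and 1.90 for Cdk1, 1 and 1.47 for CycE, and 1.64 and 1.39 for stg. Over whole windows the regulators were close to other genes, with a median best signal of 70.2 against 68.3 over the same 12202 genes. The distance from a start site to the nearest thresholded summit had a median of 8909.5 bp over the regulators and 9627 bp over all protein-coding genes. For CycE the distance was 163125 bp, equalled or passed by 241 protein-coding genes (1.73%), but the replicates differed: measured to the 3205 strongest peaks of replicate 3 alone it was 3009 bp, and to those of replicate 2 alone 163173 bp. The distant peak lay upstream, at the start of lncRNA:CR44867 inside beat-Ib (2L:15911157-15911389, signal 324, rank 168). CycD followed at 38682 bp, stg at 35157 bp and twe at 18042 bp, distances that 17.2%, 19.1% and 34.1% of protein-coding genes equalled or passed. With replicate 3 alone CycD was 470 bp from such a peak and twe 14004 bp, and with replicate 2 alone they were 38681 and 9768 bp from one. For stg the distance was 35158 and 35191 bp. The median over the regulators was 4448 bp with replicate 3 alone and 8663.5 bp with replicate 2 alone, beside 9744 and 9610 bp over all protein-coding genes.

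The IDR step weighs how alike peaks rank in the replicates, so replicate ranks of thresholded peaks are no independent check. They are given as a description. All 10 thresholded peaks had a match within 150 bp in both replicates, with rank differences from 1.01-fold to 1.93-fold and a median of 1.29-fold. Over the whole thresholded list 98.6% were matched in both, with a median of 1.45-fold and 22.1% of differences above 2-fold. Of all 65 pooled-list peaks in the windows, 33 were matched in both replicates, 17 in replicate 2 only, 13 in replicate 3 only and 2 in neither. Of the 23 matched in both below the threshold, 16 had pooled ranks up to 12000, and 11 of these differed by more than 2-fold in rank, with a median of 2.42-fold. In the whole pooled list the median at ranks 3206 to 12000 was 1.82-fold, and 43% differed by more than 2-fold. The other 7 lay beyond rank 12000, where 2 differed by more than 2-fold and the median was 1.37-fold. In the whole list that range had a median of 1.39-fold and 19.1% above 2-fold, over the 17.6% of its peaks that were matched in both replicates.

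**Figure D4:**
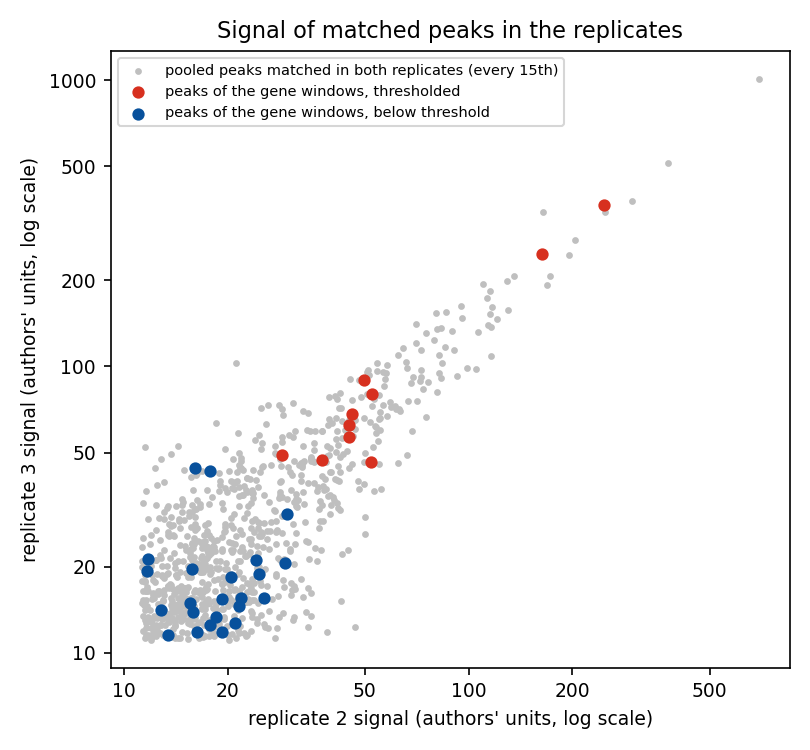
Signal in replicate 2 against signal in replicate 3 (log axes) for pooled-list peaks of the 10 windows matched in both replicates, over every 15th matched peak of the whole list in grey. The peaks past the 3' ends of CycB (247 and 368) and fzr (163 and 246) stand at the top right.

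The wider cell cycle machinery was counted by the same start-site rule. Of 68 other cell cycle genes, 22 (32.4%) had a thresholded summit within 1 kb of a start, beside 3 of the 10 regulators and 19.4% of all protein-coding genes, with no test of the difference. Among further cyclins and cyclin-dependent kinases 5 of 17 did: Cdk4, the cyclin D partner (signal 114, rank 1502), CycH (83.0), Cdk12 (82.3), CycG (79.0) and Cks30A (72.6). The Cdk4 peak ranked 4283 in replicate 2 and 951 in replicate 3, so, as for CycD, its place within the first 3205 held in replicate 3 only. Among inhibitors, mitotic kinases and phosphatase subunits 5 of 14 did, led by mts (190, nearest to Rack1) and aurA (147, nearest to CG3281), the Aurora A kinase gene, with Incenp (92.8, nearest to Br140), tws (92.4) and polo (77.5) after them. Of the anaphase-promoting complex and securin-separase genes 2 of 16 did, the subunit genes Cdc16 (146) and Cdc27 (77.4). Of the E2F, Rb and SCF genes 4 of 10 did: SkpA (345, nearest to Hmt4-20), Dp (213), Rbf2 (157) and slmb (107). Of the checkpoint genes 6 of 11 did, led by tefu (164, nearest to Hsc70-4), p53 (140) and grp (138, nearest to CG31807), the fly Chk1 gene. These 6 summits named with a nearest gene, and that of Bub3, were nearer to the start of that other gene, which makes 7 of the 22. In 15 of the 22 the start-site peak was within the first 3205 ranks of both replicates.

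**Figure D5:**
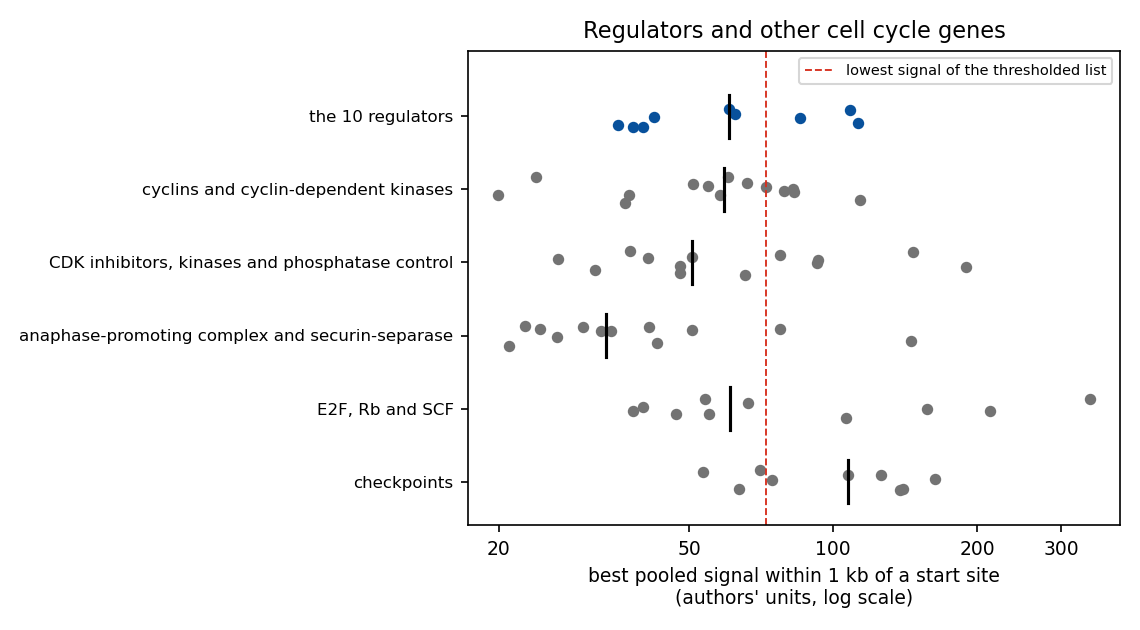
Signal of the best pooled-list peak within 1 kb of a start site for the 10 regulators and for the other cell cycle genes by list (log axis, authors' units), 1 point per gene with such a peak, a black bar at each median and a dashed line at the lowest thresholded signal of 72.3. The medians of genes with a peak run from 33.5 for the anaphase-promoting complex list to 107 for the checkpoint list, and 3 of the 10 regulators lie above the line.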

How the data were processed

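Deposited peak lists on dm6 were used: the IDR-thresholded list, the pooled list and a list for each of 2 replicates, from separate biosamples per the labels, with chromatin sonicated to 200 to 800 bp. Signal values are scores set by the authors' peak caller, and each list also gave q-values as −log10, deposited by the authors. The −log10 q was 3.81 for every thresholded peak, so it was not used for ranking. Summit offsets came from the deposited lists. The sources used here give no peak caller, aligner, IDR threshold or read depth, so the depth behind a signal is unknown. The labels point to a control experiment, whose data were not analysed here. The dm3 lists were not used.

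Start sites came from Ensembl release 115 for 6 chromosome arms, without transposable-element genes, which left 18164 genes and 23584 start sites. Summits in different lists were matched within 150 bp. Sequence elements were searched on both strands in the 201 bp around each summit. Clopper-Pearson intervals are at 95%. Genes named are the 10 regulators, neighbours nearest to their peaks, and the strongest bound genes of each further list; other neighbours, and genes at thresholded summits outside the windows, were named after their values were seen. The regulators and lists were chosen with earlier results of these data known. The assignment of peaks to genes was tested on simulated data. Alternatives changed the distances, the threshold and the replicates. Computation used Python 3.11.15, numpy 2.4.6, scipy 1.17.1, pandas 2.3.3 and matplotlib 3.10.9.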

Additional observations from a re-analysis of the deposited data

How the results depend on the processing

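In brackets is the share of all protein-coding genes under the same setting. No such share is given for overlap of the interval or for only the 5'-most start site. The 3 regulators with a thresholded summit within 1 kb of a start site were also 3 within 500 bp (16.9%), within 2 kb (23.6%), with any overlap of the interval and with only the 5'-most start site, and 1, CycB, with only the 1602 strongest thresholded peaks (11.1%). One replicate's 3205 strongest peaks gave 3 without replicate 3 (19.7%) and 4 without replicate 2 (18.9%), which added CycD. The 5 regulators in the windows with 5 kb either side were 3 with 1 kb (24.9%), 3 with 2 kb (29.8%), 3 with the 1602 strongest peaks (26.1%) and 6 with 10 kb (55.2%), which added CycB3. They were 7 without replicate 2 (41.2%), which added CycD and CycE, and 4 without replicate 3 (42%), which lost fzy. The 22 other cell cycle genes became 11 with the 1602 strongest peaks, 19 within 500 bp, 25 within 2 kb and 20 to 21 with 1 replicate left out. The median rank of the best window peak, 3438.5, was 5547.5 with 2 kb either side and 2669.5 to 3983.5 with 1 replicate left out. Distances to the nearest thresholded summit with 1 replicate left out were chosen after the data were seen. Narrower windows and a shorter list hold fewer peaks by construction; the cause of the changes between replicates was not tested. With 2 replicates in 1 group and no depth or control values, the peaks below the threshold are uncertain. Among them are those of CycD, CycE, stg and twe and the start-site peaks of CycA, CycB3 and fzy. No paired analysis was possible because there is 1 group and no result comes from a test.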
